A study of Homo sapiens with 12 samples.

Results

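The respiratory chain is built from proteins of 2 genomes, and the genes described here are those whose symbols name a subunit of its complexes I to V in either genome. Members were chosen by the start of the gene symbol. They are the MT-ND, MT-CO, MT-ATP and MT-CYB mRNAs and the protein-coding genes named NDUFA, NDUFB, NDUFC, NDUFS or NDUFV with a digit, SDHA to SDHD, UQCR, COX4 to COX8 or ATP5. The rule gave 100 of the 62702 genes with values: 13 mRNAs encoded on mitochondrial DNA and 87 nuclear genes. Of the nuclear genes 36 belong to complex I, 4 to complex II, 9 to complex III, 19 to complex IV and 19 to complex V, with NDUFA4 and NDUFA4L2 placed in complex IV despite their names. Another 203 entries whose symbols start in the same way were left out: 188 pseudogenes and other noncoding types, 6 antisense or divergent transcripts, 4 assembly factors of complex II, 3 entries absent from GENCODE 29 and 2 readthrough loci.

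Complex I (NADH dehydrogenase) and complex II (succinate dehydrogenase) pass electrons to ubiquinone, complex III passes them to cytochrome c, and complex IV passes them to oxygen. Complexes I, III and IV pump protons across the inner mitochondrial membrane, and complex V (ATP synthase) uses the gradient to make ATP. The mitochondrial mRNAs are cut from long transcripts of the circular genome and encode core membrane subunits of complexes I, III, IV and V. Every other subunit, and the whole of complex II, is transcribed in the nucleus and imported.

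RNA was sequenced from MCF10AT cells, a human breast epithelial line of the MCF10A lineage transformed with oncogenic HRAS. The cells expressed the long human prolactin receptor hPRLrL together with the intermediate form hPRLrI, whose I-tail was deleted or intact. They were starved of serum for 24 h and then given prolactin (PRL) at 250 ng/ml for 2 h or left untreated. The 4 groups of 3 libraries are called deleted PRL, deleted untreated, intact PRL and intact untreated. All groups carry hPRLrL, so the deleted and intact I-tail are compared as receptor pairs, while PRL is compared with no treatment within a pair. A gene-level count does not show whether the I-tail is present. The labels speak of biological replicates and do not say whether a receptor pair was 1 clone. The series states the role of the I-tail in breast cancer as its question. Libraries were polyA-selected, which bears on MT-ND6: it is the 1 mRNA from the other strand of the mitochondrial genome and is known to lack a stable polyA tail.

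Library totals were 36120808 to 57324865 counts, and 19073 to 25200 genes had at least 1 count. PRLR, the receptor gene, was at 3098 to 3957 CPM (counts scaled to library size with edgeR's trimmed mean of M-values, TMM) across the 12 libraries. Summed basal epithelial markers were at 814.6 to 8216 CPM and luminal markers at 1096 to 3065 CPM in every library; the basal sums were 1071 to 8216 in deleted PRL, 964.3 to 6787 in deleted untreated, 893.3 to 6185 in intact PRL and 814.6 to 4966 in intact untreated libraries. The leukocyte list was at 0.0 to 0.208 CPM, the endothelial list at 1.14 to 3.09 CPM, the muscle list at 0.143 to 0.836 CPM with MYH7 at 0, and the fibroblast list at 400.7 to 604.6 CPM. Libraries differed within groups in base composition, described below, and intact PRL library 2 stood farthest apart, with the fewest detected genes and the lowest scaling factor (0.791).

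Promoter sequence was looked at first, because nuclear respiratory factor 1 (NRF1), the GA-binding protein GABP (also called NRF2) and YY1 are the transcription factors best known for binding promoters of these nuclear genes. RefSeq promoters of build GRCh38.p14, 250 bases before to 50 after the start, were matched for 65 of the 87 nuclear members and searched on both strands. The NRF1 motif, GCGCA, any base and GCGC, was in 16 of 65 (24.6%), against 6.28% of 27305 promoters. The GABP motif CCGGAAG was in 19 of 65 (29.2%), against 10.7%. The YY1 motif, AAGATGG followed by CGG, was in 7 of 65 (10.8%), against 1.28%. None of these letters was in the window of 30 members (46.2%). The 27305 promoters were not matched to those of the members for GC content or expression.

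4 promoters are printed, 5′ to 3′ on the gene's strand with the motifs in capitals, as examples of members that hold a motif, 1 each from complexes I, II, III and V, among those described for the deletion of the I-tail under PRL. NDUFA4 and COX7C of complex IV, which had smaller p-values there than NDUFA8 and SDHB, had none of the motifs in this window. They lie at chr9:122159730-122160029 (minus strand, NDUFA8), chr1:17053983-17054282 (minus, SDHB), chr1:46303448-46303747 (plus, UQCRH) and chr10:7787927-7788226 (plus, ATP5F1C). NDUFA8 has 2 overlapping NRF1 motifs, SDHB 1 GABP and 1 YY1 motif, UQCRH 1 GABP motif on the other strand and ATP5F1C 1 NRF1 motif.
NDUFA8: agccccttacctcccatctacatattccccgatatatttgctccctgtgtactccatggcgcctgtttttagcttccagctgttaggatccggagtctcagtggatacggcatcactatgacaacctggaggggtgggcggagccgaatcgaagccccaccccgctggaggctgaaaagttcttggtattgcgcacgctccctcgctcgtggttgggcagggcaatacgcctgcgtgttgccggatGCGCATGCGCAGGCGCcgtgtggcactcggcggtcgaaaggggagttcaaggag
SDHB: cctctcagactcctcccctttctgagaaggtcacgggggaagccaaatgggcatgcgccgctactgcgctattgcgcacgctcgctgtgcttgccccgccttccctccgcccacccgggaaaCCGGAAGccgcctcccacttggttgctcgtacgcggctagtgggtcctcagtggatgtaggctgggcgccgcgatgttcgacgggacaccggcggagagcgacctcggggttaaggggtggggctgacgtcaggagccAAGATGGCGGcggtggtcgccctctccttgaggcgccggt
UQCRH: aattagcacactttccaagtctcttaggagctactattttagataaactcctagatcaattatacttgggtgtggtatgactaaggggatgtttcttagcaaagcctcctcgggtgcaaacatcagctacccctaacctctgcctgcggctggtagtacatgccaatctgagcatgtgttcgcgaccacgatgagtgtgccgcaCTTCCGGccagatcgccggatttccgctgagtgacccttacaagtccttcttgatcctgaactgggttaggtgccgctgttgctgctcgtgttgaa
ATP5F1C: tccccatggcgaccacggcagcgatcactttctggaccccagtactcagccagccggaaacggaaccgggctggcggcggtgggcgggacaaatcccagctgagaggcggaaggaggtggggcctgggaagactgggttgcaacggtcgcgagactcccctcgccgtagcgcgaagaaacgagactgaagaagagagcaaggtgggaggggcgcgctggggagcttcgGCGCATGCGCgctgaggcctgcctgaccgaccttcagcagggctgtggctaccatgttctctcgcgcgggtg

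Mitochondrial mRNAs lie next to each other and 3 pairs share bases, so reads there cannot be given to 1 gene. MT-ATP6 and MT-CO3 share 1 base. MT-ATP8 and MT-ATP6 share 46 bases at chrM:8527-8572 of GRCh38 and MT-ND4L and MT-ND4 share 7 bases at chrM:10760-10766, both on the plus strand; the stretches follow with the start codon of the second gene in capitals.
MT-ATP8 and MT-ATP6: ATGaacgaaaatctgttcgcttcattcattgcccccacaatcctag
MT-ND4L and MT-ND4: ATGctaa

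The 13 mitochondrial mRNAs gave 55151241 counts over the 12 libraries and the 87 nuclear members 3428404. Their share of all counts was 10.5%, 10.4% and 8.94% in deleted PRL libraries 1 to 3, 12.6%, 11.04% and 9.34% in deleted untreated, 12.4%, 9.94% and 10.96% in intact PRL, and 13.3%, 10.6% and 10.0% in intact untreated libraries. Means were 9.94 ± 0.870% in deleted PRL, 10.98 ± 1.61% in deleted untreated, 11.1 ± 1.23% in intact PRL and 11.3 ± 1.77% in intact untreated libraries (SD, n = 3 each), and the groups overlapped. Library 1 had the highest share in every group. The widest 95% Wilson interval of 1 library's share was ± 0.0109 percentage points, which covers counting error only.

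The nuclear members together took 0.693%, 0.688% and 0.718% of counts in deleted PRL, 0.656%, 0.669% and 0.655% in deleted untreated, 0.647%, 0.668% and 0.612% in intact PRL, and 0.676%, 0.700% and 0.660% in intact untreated libraries. The 3 deleted PRL libraries lay above all deleted untreated and intact PRL libraries, and intact untreated library 2 reached into their range. The ratio of mitochondrial to nuclear counts, which no scaling can change, was 15.1, 15.1 and 12.5 in deleted PRL, 19.1, 16.5 and 14.3 in deleted untreated, 19.2, 14.9 and 17.9 in intact PRL, and 19.7, 15.1 and 15.2 in intact untreated libraries. Deleted PRL libraries had the lowest mean ratio, 14.2 ± 1.55, against 16.6 ± 2.44 in deleted untreated, 17.3 ± 2.2 in intact PRL and 16.6 ± 2.63 in intact untreated libraries, and their range overlapped that of every other group. Unlike a scaling factor, the differences between libraries in base composition described below can change this ratio. The median GC content was 44.3% for the mitochondrial and 50.8% for the nuclear transcripts, and its part in the ratio was not tested.

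**Figure D1:**
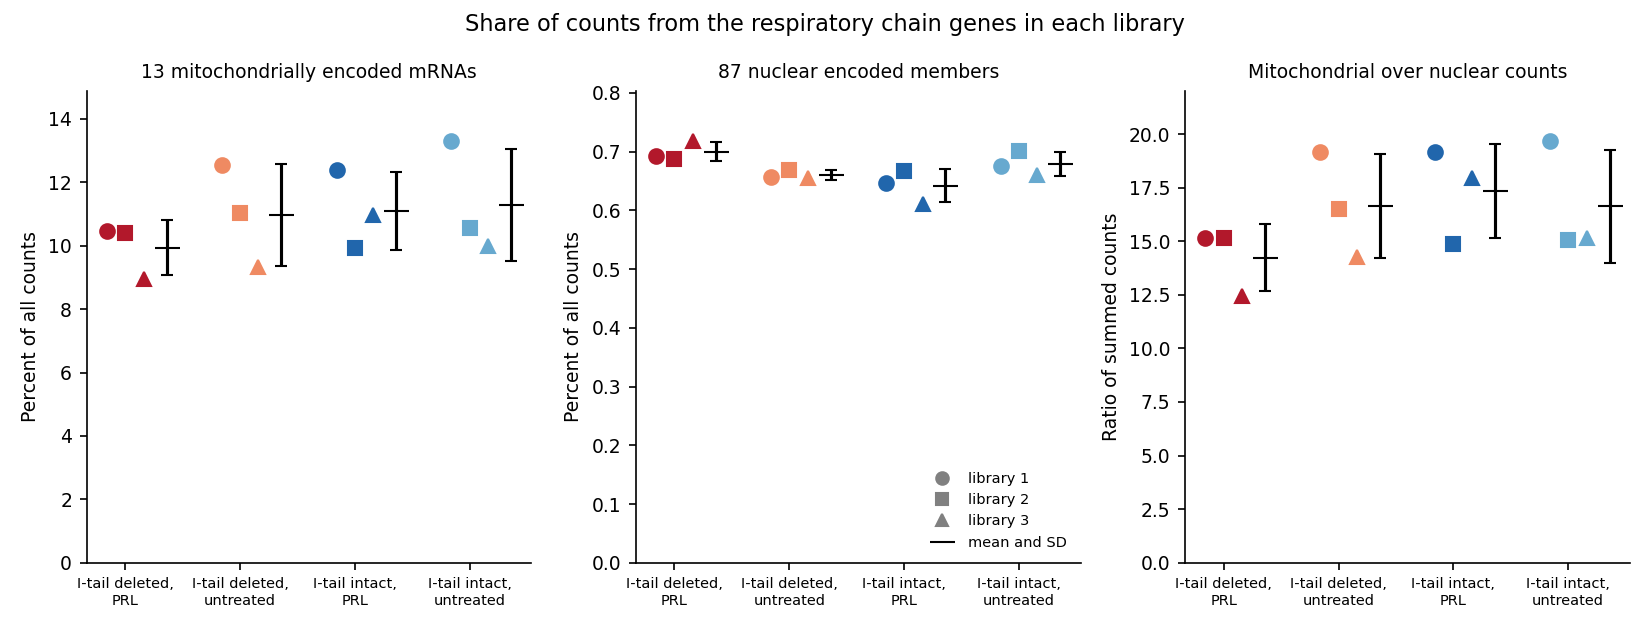
Share of all counts from the 13 mitochondrial mRNAs and the 87 nuclear members, in percent, and the ratio of the 2 sums, for each library (points) with the group mean and SD (bars, n = 3). The mitochondrial share runs between 8.94% and 13.3% with overlap between all groups, and library 1 is the highest of each group.

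Per kb of transcript, mitochondrial mRNAs had a median level of 9262 CPM per kb and the 81 nuclear members that passed the low-count filter a median of 51.8 CPM per kb. Cytochrome c oxidase led the mitochondrial order, with means of 17474 CPM per kb for MT-CO2, 15755 for MT-CO1 and 12719 for MT-CO3, the 3 subunits of its catalytic core. MT-ATP6, the proton channel subunit of ATP synthase, was at 11562 CPM per kb and MT-ATP8, its small neighbour with the shared stretch, at 2535, the lowest of the 13. MT-CYB, the cytochrome b of complex III, was at 9540 CPM per kb. The complex I mRNAs spread from 11294 CPM per kb for MT-ND4 and 9262 for MT-ND1 through 6297 for MT-ND2, 5851 for MT-ND3, 3944 for MT-ND4L and 3813 for MT-ND6 to 3539 for MT-ND5. Values of MT-ND6, here and in the contrasts, are uncertain, as the libraries were polyA-selected and the strand setting is not stated. Which strand its reads came from was not tested. The ranges of neighbours in this order overlapped over the 12 libraries, for example 14506 to 23875 for MT-CO2 and 13521 to 17902 for MT-CO1, while those of MT-CO3 (10744 to 15018) and MT-ND2 (5036 to 7224) did not. On this log2 CPM scale the median SD within groups was 0.161 for mitochondrial mRNAs, 0.209 for nuclear members, 0.275 for the 4216 tested genes with a mean log2 CPM of at least 5 and 0.408 for all 17677 tested genes.

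**Figure D2:**
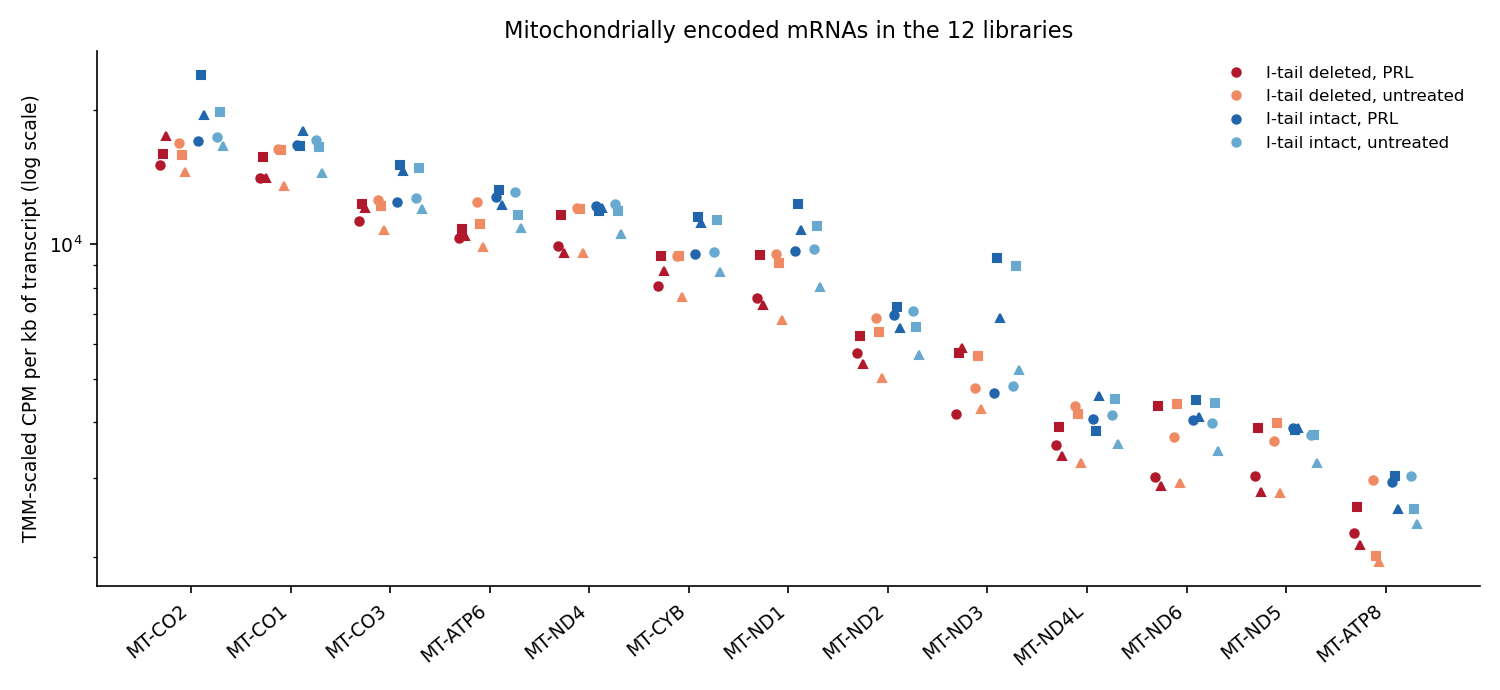
Level of each mitochondrial mRNA in TMM-scaled CPM per kb of transcript (log axis) in the 12 libraries; colours give the group and circles, squares and triangles libraries 1, 2 and 3. MT-CO2 lies highest (mean 17474) and MT-ATP8 lowest (mean 2535), and in 7 of 13 mRNAs all deleted PRL libraries (red) lie below all intact PRL libraries (dark blue).

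Among nuclear members the highest levels per kb were COX4I1 (501.1 CPM per kb), the general isoform of a cytochrome c oxidase subunit, and ATP5F1B (441.4), the catalytic beta subunit of ATP synthase. The top of complex I was NDUFB10 (271.1), of complex III UQCRC1 (261.4) and of complex II SDHC (109.7), a membrane anchor of succinate dehydrogenase. Orders per kb depend on the transcript whose length was used. SDHC was divided by 460 bases and SDHB by 1153, while in CPM SDHB was higher (59.69 against 50.45). Among the electron-carrying subunits NDUFV1, which binds NADH, was at 175.7 and NDUFS1 at 19.7 CPM per kb. SDHB, the iron-sulfur subunit of complex II, was at 51.8, its flavoprotein SDHA at 8.38, and UQCRFS1, the Rieske protein, at 31.8 CPM per kb. ATP5F1A, the alpha subunit of ATP synthase, was at 148.0 and ATP5IF1, its inhibitor, at 37.1 CPM per kb. The 3 genes of its c-ring, which encode the same mature protein, were at 172.9 (ATP5MC3), 154.0 (ATP5MC2) and 61.6 (ATP5MC1).

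Isoforms known from heart and skeletal muscle, lung or testis were near or at 0. COX4I2, COX6A2 and COX7B2 had 0 counts in all 12 libraries and COX8C 3 counts in all, against mean levels of 354.8 CPM for COX4I1, 57.4 for COX6A1, 30.8 for COX7B and 45.9 for COX8A. COX7A1 had 54 counts in all, against 40501 for COX7A2 and 54305 for COX7A2L. COX6B2 had 233 counts against 101753 for COX6B1, and NDUFA4L2, which is induced by hypoxia in other cells, 738 against 28885 for NDUFA4. UQCRHL, an intronless near-copy of UQCRH, averaged 2.46 CPM, against 78.5 for UQCRH; reads of such a pair could be split in the counting, so both values are uncertain. COX4I2, COX6A2, COX7B2, COX7A1, COX8C and ATP5MGL did not pass the low-count filter.

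The lowest tested members of complex I included NDUFV2, a core iron-sulfur subunit of the NADH-binding arm, which had 60 counts in all and a mean of 0.121 CPM per kb. Next were NDUFA9 at 0.537 per kb of an 8363-base transcript, NDUFA7 at 0.785, NDUFA13 at 1.92, NDUFC2 at 5.46, NDUFA5 at 5.82 and NDUFB8 at 6.31 CPM per kb, all accessory subunits. Exons of 4 of these genes are shared on the same strand with exons of another annotated gene over 82.9% (NDUFV2), 75.9% (NDUFA7), 44.1% (NDUFA13) and 94.2% (NDUFB8) of the transcript, and those other genes had 0, 20, 66 and 2 counts. The shared part was smaller in NDUFC2 (17.3%) and NDUFA9 (11.8%), and NDUFA5 had none. On the same strand 7 nuclear members were covered over at least 40%, with NDUFA11, ATP5PO and ATP5MF. They had a median of 6.31 CPM per kb, against 57.02 for the 71 with no exon shared on that strand. Some of the 71 share exons with a gene on the other strand, such as ATP5ME over 49.9% and NDUFA1 over 44.5%. The limit of 40% was set after the values were seen. ATP5MF, at 201.8 CPM per kb and 48.0% shared, was not low. No source used here says how reads on shared exons were counted, and its part in these levels was not tested.

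**Figure D3:**
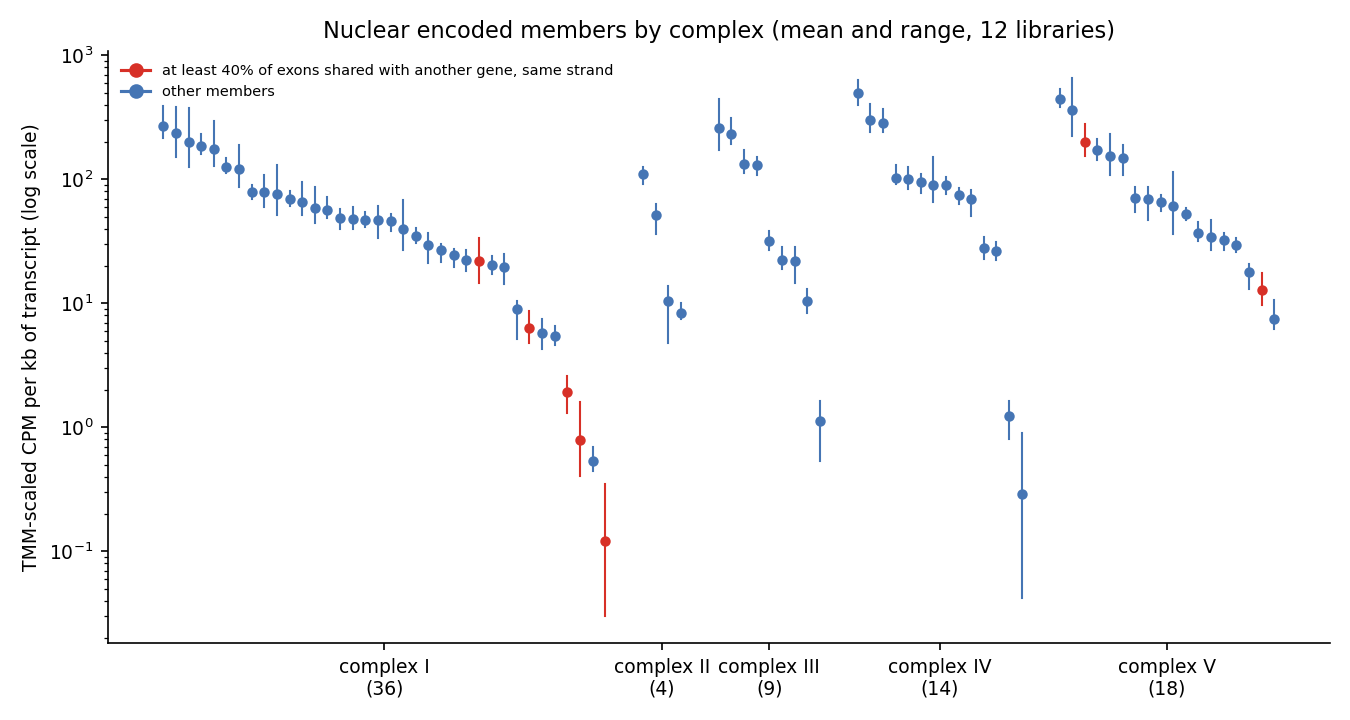
Mean (points) and range (lines) over the 12 libraries of the 81 tested nuclear members, in TMM-scaled CPM per kb (log axis), ordered within each complex; red marks members with at least 40% of the transcript in exons of another gene on the same strand. The 3 lowest red points are NDUFA13 (1.92), NDUFA7 (0.785) and NDUFV2 (0.121), all in complex I; a line whose lowest library is at 0 ends at the bottom.

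Nuclear members did not move as 1 block between libraries but spread by base composition, a property the choice of members did not use. GC content was 33.2% to 69.3% (median 50.8%) over the 87 nuclear transcripts and 39.6% to 47.7% (median 44.3%) over the 13 mitochondrial ones. In intact PRL library 2 the 27 tested nuclear members richest in GC (at least 53.6%) lay a median of 0.56 above their mean over the 12 libraries (log2 CPM), and the 27 poorest (at most 47.2%) 0.10 below it. In the 4 first libraries the GC-rich members lay low instead, with medians of -0.26 in deleted PRL, -0.35 in deleted untreated, -0.31 in intact PRL and -0.30 in intact untreated library 1. Across the 81 genes Pearson's r between GC content and this deviation ran from -0.69 in intact untreated library 1 to 0.69 in intact PRL library 2; genes of 1 library share its preparation and are not replicates. Over 17050 tested genes with a GC value, r had the same sign in these libraries, -0.51 in intact untreated library 1 and 0.42 in intact PRL library 2. For that set GC content was pooled over all transcripts of a gene, while members had it from 1 transcript.

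ATP5F1D, the delta subunit of ATP synthase and the richest in GC of the members, shows the size of this spread. It had 173.5, 249.0 and 321.7 CPM in deleted PRL, 159.0, 198.6 and 218.7 in deleted untreated, 159.0, 465.6 and 309.5 in intact PRL, and 165.1, 428.7 and 233.0 in intact untreated libraries. NDUFS8, an iron-sulfur subunit of complex I at 63.3% GC, had 111.3, 153.8 and 197.3 CPM in deleted PRL, 99.1, 123.9 and 123.1 in deleted untreated, 105.6, 299.1 and 196.3 in intact PRL, and 108.0, 243.6 and 153.7 in intact untreated libraries. In both genes library 1 was the lowest of each group and library 2 of the intact groups the highest, and groups overlapped. For deletion of the I-tail in untreated cells they had the lowest log2 fold changes of all tested members, -0.52 ± 0.39 for ATP5F1D and -0.55 ± 0.36 for NDUFS8 (± SE), and neither passed the test (adjusted p = 0.9998, edgeR). With a GC offset for each library they were -0.20 and -0.34. Without intact untreated library 2 they were -0.06 for ATP5F1D and -0.19 for NDUFS8, and without intact untreated library 1 both were -0.78. NDUFV2 had the highest, 2.13 ± 1.64, on 60 counts in all.

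**Figure D4:**
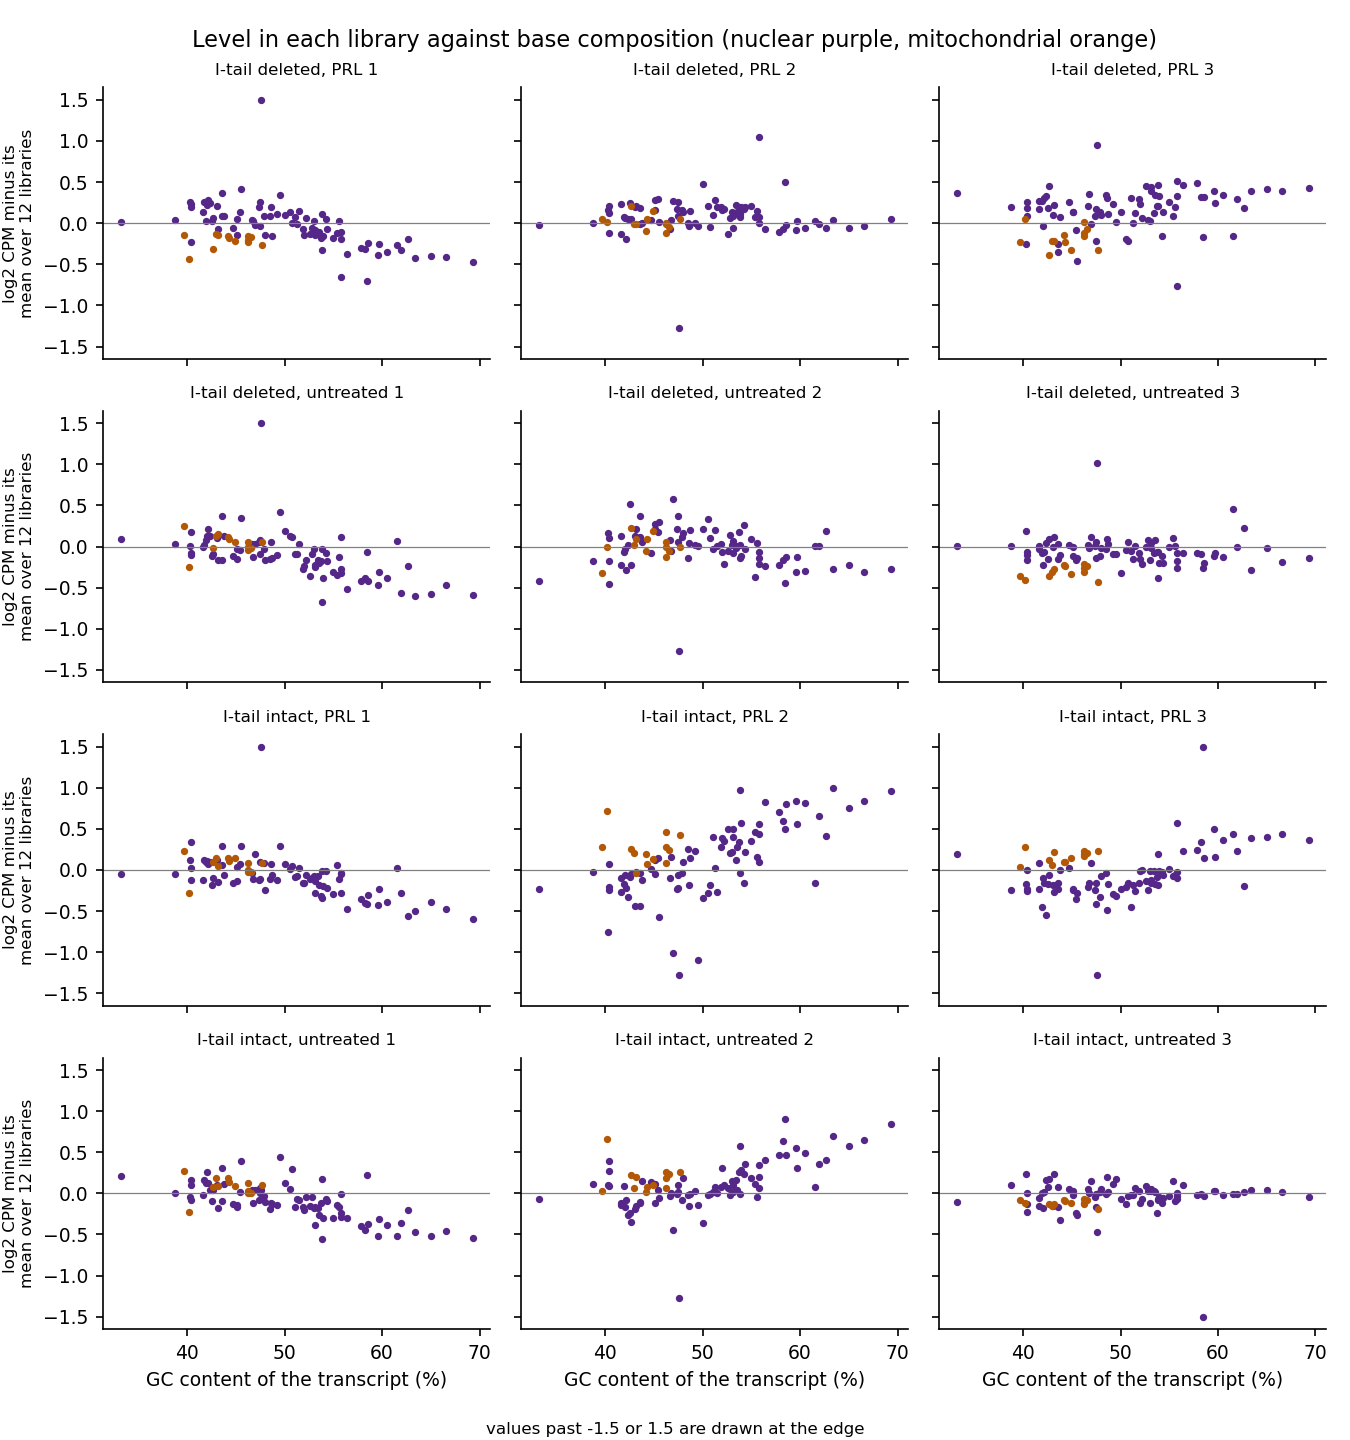
Each tested nuclear member (purple) and mitochondrial mRNA (orange) by GC content of its transcript (x, percent) and by its log2 CPM minus its mean over the 12 libraries (y), 1 panel per library with the groups in rows. Nuclear members slope down in the first library of every group and up in intact PRL library 2 (Pearson's r 0.69) and intact untreated library 2 (r 0.62).

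No member passed an adjusted p of 0.05 in any of 7 contrasts across all 17677 tested genes in edgeR's quasi-likelihood test. Of all tested genes 0.017% were called for PRL with intact I-tail, 0.017% for PRL with deleted I-tail and 0.119% for the average of both. For deletion of the I-tail 0.00566% were called in untreated cells, in PRL-treated cells and on average, and 0.0% for the difference between the PRL effects. DESeq2 and limma-voom also called 0 members. At an unadjusted p under 0.05 there were 5 members for the deletion under PRL (background 1.62% of genes), 2 for the averaged deletion (2.28%), 1 for the difference between PRL effects (0.718%) and 0 for PRL with intact I-tail (2.55%), PRL with deleted I-tail (1.79%), the averaged PRL effect (3.8%) and the deletion in untreated cells (0.837%). In the averaged contrasts the median 95% interval reached 0.28 (log2) to either side for mitochondrial mRNAs and 0.29 for nuclear members. These intervals are not adjusted for the 17677 tested genes, so a change had to be larger still to be called.

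With the I-tail deleted, the mitochondrial mRNAs had lower values on average, without passing the test. All 13 log2 fold changes were below 0 in untreated cells, under PRL and on average, where 45.0%, 47.9% and 44.2% of all tested genes were below 0; the 13 mRNAs come from shared precursor transcripts and are not independent. Their median was -0.10 in untreated cells, -0.28 under PRL and -0.20 on average, against 0.03, 0.01 and 0.03 for all tested genes. These medians stayed below 0 under every alternative tried. MT-ND1, a complex I subunit at the ubiquinone site, had 7238, 9035 and 6979 CPM in deleted PRL, 9090, 8690 and 6479 in deleted untreated, 9220, 11765 and 10263 in intact PRL, and 9349, 10487 and 7664 in intact untreated libraries. Under PRL the deleted libraries lay below all intact ones, and without PRL the groups overlapped. Its averaged difference was -0.30 (95% interval -0.62 to 0.01, adjusted p = 0.991, edgeR).

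MT-ND3 had the largest averaged difference of the 13, -0.39 ± 0.20, and also the widest spread, with 1441, 1977 and 2026 CPM in deleted PRL, 1648, 1947 and 1480 in deleted untreated, 1611, 3222 and 2365 in intact PRL, and 1671, 3098 and 1808 in intact untreated libraries. Without intact untreated library 2 the difference was -0.24. The second libraries of the intact groups carried its high values. In these libraries GC-rich nuclear members lay above their mean and GC-poor ones below it, and MT-ND3 itself has 40.2% GC. The cause of its high values was not tested. MT-CO2, which holds the copper site that takes electrons from cytochrome c, had 10279, 10908 and 11940 CPM in deleted PRL, 11543, 10833 and 9922 in deleted untreated, 11650, 16331 and 13313 in intact PRL, and 11904, 13478 and 11326 in intact untreated libraries. Its averaged difference was -0.25 ± 0.13, and the groups overlapped. The other 10 lay between -0.25 for MT-ATP8 and -0.13 for MT-ND4L. Under PRL, 7 of 13 mitochondrial mRNAs had all deleted libraries below all intact ones (background 2.06% of genes), in untreated cells 0 of 13 (1.91%).

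Nuclear members had smaller median differences, and the contrast between both sets of genes was not tested. Their median for the deletion was -0.03 in untreated cells, 0.11 under PRL and 0.05 on average, with 30, 58 and 53 of 81 members above 0 (background 55.0%, 52.1% and 55.8%). The averaged median turned to -0.04 with a GC offset for each library. Under PRL, 11 of 81 nuclear members had all deleted libraries above all intact ones (background 2.89%) and 0 the reverse (2.06%); in untreated cells it was 1 in each direction (3.58% higher, 1.91% lower). By base composition, 8 of 27 GC-rich members were above 0 under PRL with a median of -0.20, against 26 of 27 GC-poor members with a median of 0.18. Over all genes with a GC value the medians of the GC-rich and GC-poor genes were -0.19 and 0.12. Those genes were split at other limits, at least 54.79% and at most 45.75%. With the GC offset the nuclear median for the deletion was -0.12 in untreated cells and 0.04 under PRL.

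For the deletion under PRL, 5 nuclear members had an unadjusted p under 0.05: NDUFA4, UQCRH, COX7C, ATP5F1C and NDUFA8. NDUFA4, a late-joining subunit of complex IV at 40.4% GC, had 64.0, 64.5 and 66.9 CPM in deleted PRL, 52.1, 60.2 and 52.0 in deleted untreated, 51.3, 48.3 and 47.4 in intact PRL, and 52.8, 59.2 and 55.9 in intact untreated libraries. The 3 deleted PRL libraries lay above the other 9. Its difference for the deletion under PRL was 0.41 ± 0.14 (unadjusted p = 0.0120, adjusted p = 0.9997, edgeR) and 0.25 with the GC offset, and its PRL effect was higher by 0.44 ± 0.20 with the deleted than with the intact I-tail (adjusted p = 1.0, edgeR).

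UQCRH, the hinge protein of complex III, had 89.5, 87.9 and 83.3 CPM in deleted PRL, 81.4, 90.9 and 78.4 in deleted untreated, 71.9, 66.3 and 66.0 in intact PRL, and 73.6, 77.6 and 75.6 in intact untreated libraries. All 6 deleted libraries lay above all 6 intact ones; it was the 1 nuclear member with such a separation (background 0.13% of genes), and 0 members were separated the other way (0.0566%). The averaged difference was 0.25 ± 0.10 (adjusted p = 0.991, edgeR), and 0.13 with the GC offset. COX7C, a small subunit of complex IV, had 65.8, 70.1 and 67.2 CPM in deleted PRL, 59.6, 65.2 and 58.3 in deleted untreated, 54.9, 55.5 and 50.7 in intact PRL, and 58.8, 54.9 and 57.3 in intact untreated libraries, overlapping by a small margin without PRL. Its averaged difference was 0.22 ± 0.098 (adjusted p = 0.991, edgeR), and 0.087 with the GC offset.

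ATP5F1C, the gamma subunit that forms the rotating shaft of ATP synthase, had 88.1, 76.7 and 93.3 CPM in deleted PRL, 81.3, 75.4 and 76.2 in deleted untreated, 78.9, 59.1 and 50.9 in intact PRL, and 76.4, 61.8 and 82.8 in intact untreated libraries, so its groups overlapped under both treatments. NDUFA8, an accessory subunit of complex I, had 43.4, 44.7 and 42.4 CPM in deleted PRL and 39.6, 32.5 and 32.7 in intact PRL libraries, which did not overlap. SDHB had 67.6, 57.9 and 73.1 CPM in deleted PRL and 62.1, 52.1 and 42.2 in intact PRL libraries, which did. The differences for the deletion under PRL were 0.45 ± 0.19, 0.32 ± 0.14 and 0.35 ± 0.18 for ATP5F1C, NDUFA8 and SDHB, each with an adjusted p of 0.9997 (edgeR).

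PRL effects were small in both sets of genes. With the intact I-tail the mitochondrial median was 0.10 with 13 of 13 above 0 (background 48.4%), and the nuclear median was -0.0004 with 40 of 81 above 0. By base composition, 23 of 27 GC-rich nuclear members were above 0 with a median of 0.19, against 4 of 27 GC-poor ones with a median of -0.09. Over all genes with a GC value these medians were 0.15 and -0.12. The mitochondrial median turned to -0.03 with library size as the only scaling and was 0.01 without intact untreated library 3, 0.06 without intact PRL library 2 and 0.16 without intact untreated library 2. Here 1 of 13 mitochondrial mRNAs had all PRL libraries above all untreated ones (background 2.61%) and 5 of 81 nuclear members had them below (2.88%). With the deleted I-tail the mitochondrial median was -0.07 with 4 of 13 above 0 (background 47.2%), and the nuclear median was 0.17 with 66 of 81 above 0. This mitochondrial median was above 0 with limma-voom, with the GC offset and without deleted untreated library 1, and the nuclear one stayed above 0 under every alternative, between 0.07 and 0.21. Beside it, 10 of 81 nuclear members had all deleted PRL libraries above all deleted untreated ones (background 3.29%) and 1 had them below (4.97%). The average of both receptor pairs was 0.01 for the mitochondrial and 0.06 for the nuclear genes, against -0.02 over all genes, and both were below 0 (-0.10 and -0.04) with library size as the only scaling, which moves the all-gene median to -0.12. The mitochondrial one was also below 0 without deleted untreated library 3 (-0.029) and without intact untreated library 3 (-0.026). In that average 0 members were separated in either direction (0.441% higher, 0.238% lower). There 24 of 27 GC-rich nuclear members were above 0 with a median of 0.24, against 15 of 27 GC-poor ones with a median of 0.01. With the deleted I-tail 24 of 27 GC-rich members (median 0.23) and 21 of 27 GC-poor ones (0.12) were above 0.

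The PRL effect with the deleted minus that with the intact I-tail had a median of -0.16 over the mitochondrial genes, with 13 of 13 below 0 (background 52.7%), and 0.14 over the nuclear genes, with 69 of 81 above 0 (background 47.3%). Both signs held under every alternative. Among complexes the nuclear medians were 0.11 for I, 0.17 for II, 0.13 for III, 0.17 for IV and 0.16 for V, with 18 of 18 tested members of complex V above 0. The contrasts are built from the same 12 libraries and are not separate evidence. The smallest p for the averaged PRL effect belonged to NDUFB2, a complex I accessory subunit at 55.75% GC. It had 30.1, 32.6 and 46.2 CPM in deleted PRL, 26.1, 27.9 and 28.8 in deleted untreated, 31.5, 47.7 and 30.4 in intact PRL, and 27.6, 37.2 and 31.0 in intact untreated libraries. Its averaged PRL effect was 0.29 ± 0.15 (adjusted p = 0.980, edgeR); the intact groups overlapped and the deleted ones did not. The effect was 0.18 without intact PRL library 2 and 0.19 without deleted PRL library 3.

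**Figure D5:**
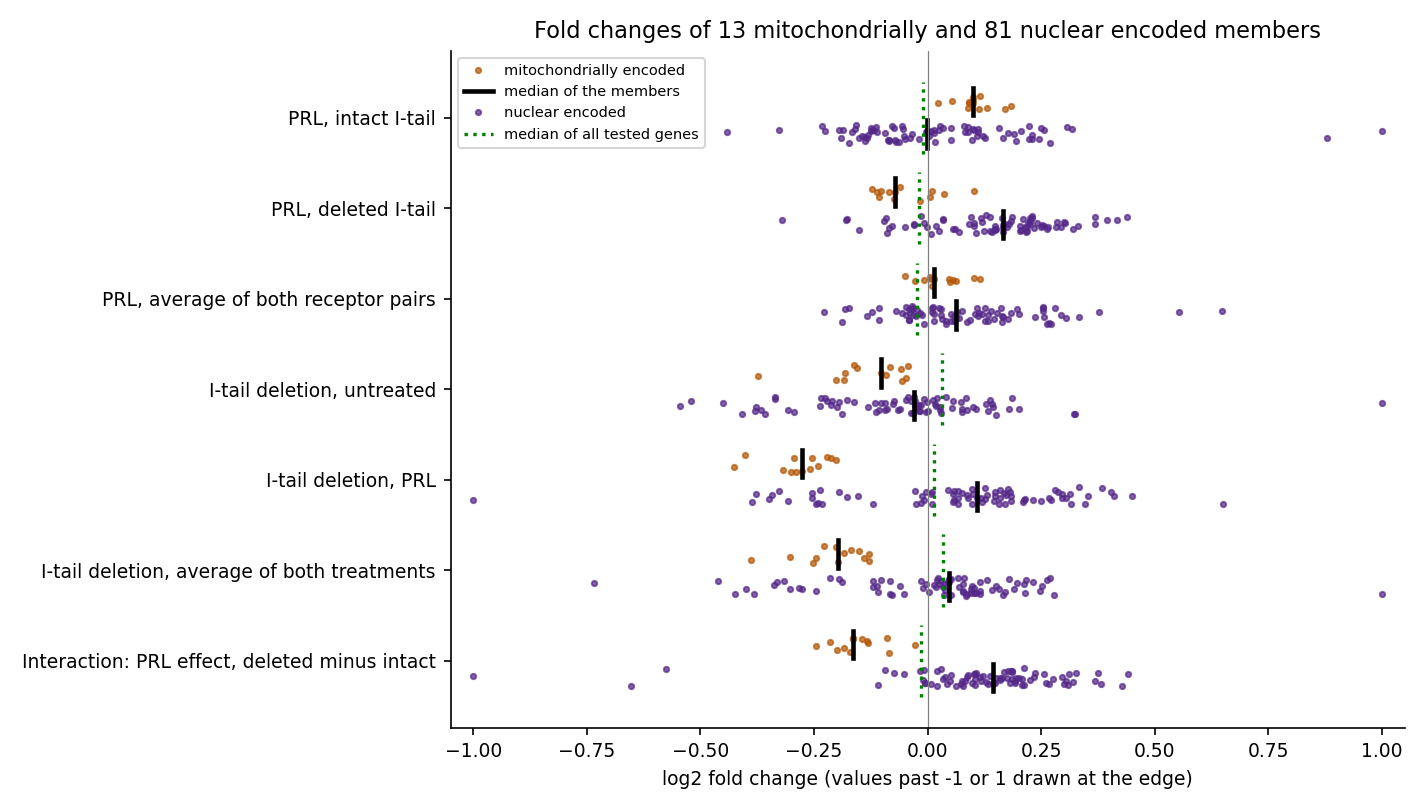
Log2 fold change of each tested member in the 7 contrasts (x), mitochondrial mRNAs in orange above nuclear members in purple, with the median of each set (black) and of all tested genes (dotted green). The mitochondrial median lies left of the nuclear one in every contrast but PRL with intact I-tail, at -0.28 against 0.11 for the deletion under PRL.

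No gene of the lists around the chain passed the test. None of 51 tested assembly factors, 77 proteins of the mitochondrial ribosome, 25 genes of mitochondrial transcription and RNA processing, 16 of mitochondrial DNA maintenance, 17 of the citric acid cycle, 22 of glycolysis, 14 regulators of mitochondrial biogenesis and 15 further respiratory chain genes was called in any contrast. Medians of these lists were between -0.02 and 0.17 for the averaged PRL effect and between -0.14 and 0.10 for the averaged deletion, glycolysis giving the 0.17 and the -0.14. SLC16A3, a lactate exporter, had the smallest p of the glycolysis list in both, 0.40 ± 0.19 for PRL and -0.37 ± 0.19 for the deletion (adjusted p = 0.980 and 0.991, edgeR). PPARGC1B, a coactivator of mitochondrial biogenesis, had a mean of 3.57 CPM in deleted PRL, 1.82 in deleted untreated, 2.71 in intact PRL and 1.73 in intact untreated libraries, an averaged PRL effect of 0.81 ± 0.24 (adjusted p = 0.589, edgeR). NDUFAF6, an assembly factor of complex I, was at -0.47 ± 0.18 for PRL and MRPL15, a protein of the large mitochondrial ribosomal subunit, at 0.47 ± 0.16 for the deletion (adjusted p = 0.980 and 0.991, edgeR).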

How the data were processed

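RNA of 12 MCF10AT libraries was measured after polyA selection. The authors deposited whole-number counts per Ensembl gene. The submitters' processing notes list STAR 2.7.9a, featureCounts and build GRCh38; the annotation release, strand setting and treatment of shared reads are not stated in the sources. 1 of 62703 entries had no values and was left out. Totals of 36120808 to 57324865 counts set the counting precision. Groups follow the genotype and treatment labels; library numbers follow accession order.

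After filterByExpr and TMM scaling, edgeR 4.0.16 (R 4.3.3) fitted quasi-likelihood models with 1 mean per group, robust dispersions and 8 residual degrees of freedom. P-values were adjusted over 17677 genes (Benjamini-Hochberg, 0.05). The same procedure was also run on counts simulated with the means and dispersions of this fit. Standard errors are the fold change over the square root of F. CPM per kb uses a GENCODE 29 transcript of middle length. No list was given a p-value. Members, gene lists and the rule for named genes were chosen with earlier results of these data known. The rule for named genes took all 13 mitochondrial mRNAs and the 3 nuclear members with the smallest p per contrast. It also took the ends of each complex, tissue isoforms and catalytic subunits. Members under this rule not described above follow with their log2 fold changes. For PRL they were SDHD (-0.44) and NDUFB5 (-0.33) with intact I-tail and UQCR10 (0.29) with deleted I-tail. For the averaged PRL effect NDUFS6 had 0.26 and UQCR10 0.20. NDUFS7 had -0.45 for the deletion in untreated cells, and NDUFA1 0.33 for the difference between PRL effects. ATP5MG, the lowest tested member of complex V, had 7.50 CPM per kb. NDUFA5, NDUFA7, NDUFA8, NDUFA9, NDUFA11, NDUFA13, NDUFB8, NDUFC2, ATP5PO and ATP5MF were picked out after looking at their values. Alternatives were 4 other scalings, 2 filters, DESeq2 1.42.0, limma-voom (limma 3.58.1), non-robust dispersions, the compared groups only, a term for runs of 4 title numbers, each library left out and, chosen after seeing the data, a GC offset for each library (GC known for 96.5% of tested genes).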

Additional observations from a re-analysis of the deposited data

How the results depend on the processing

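No member was called under any alternative in any contrast. The smallest adjusted p of a member was 0.0751 with limma-voom (PRL, intact I-tail; over all alternatives it ranged up to 1.0), and 0.192 with a term for the runs of title numbers; over the 7 contrasts 91 member values had an unadjusted p under 0.05 with limma-voom and 49 without intact PRL library 1, against 8 in the fit reported. For the alternatives the share of all tested genes with an unadjusted p under 0.05 is not given. Such counts of members are therefore not a result about the members. Over all genes the averaged PRL effect gave 20 higher and 1 lower calls, while DESeq2 gave 74 higher and 17 lower, limma-voom 84 and 32, the run term 167 and 31, no filter 111 and 13, and the GC offset 48 and 9. The 13 mitochondrial mRNAs in the averaged deletion and the 3 nuclear members with the smallest p in each contrast kept their sign in these alternatives; other named genes were not recomputed. The mitochondrial median for PRL with intact I-tail was -0.034 with library size alone and 0.23 with the GC offset. For PRL with deleted I-tail it was 0.069 with limma-voom, and for the averaged PRL effect it was 0.14 with limma-voom and 0.15 with the GC offset. For the deletion the GC offset gave -0.41 under PRL and -0.33 on average, where 8 members then had an unadjusted p under 0.05. For the deletion in untreated cells, leaving out 1 library gave mitochondrial medians between -0.23 (without intact untreated library 3) and -0.011 (without deleted untreated library 3). The cause was not tested. Leaving out 1 library moved the nuclear median for the deletion under PRL to 0.04 (without intact PRL library 3, and also without deleted PRL library 3) and 0.17 (without intact PRL library 2), and the averaged one to -0.005 (without intact PRL library 3). For the difference between PRL effects, leaving out 1 library gave -0.26 to -0.07 for the mitochondrial and 0.06 to 0.26 for the nuclear genes (0.26 without intact PRL library 2).

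Titles run from 1 to 12 and each run of 4 holds 1 library of every group, but the labels do not call a run a batch. Deviations from group means correlated at 0.097 to 0.603 (median 0.253, 18 pairs) within runs and at -0.447 to 0.301 (median -0.204, 36 pairs) between runs. The fit reported has no term for runs. With the run as a term 0 members were called and 59 member values had an unadjusted p under 0.05, again without the share over all genes. Counts of the isoforms known from other tissues, of NDUFV2 and of NDUFA7 were few, which limits the precision of their values. The cause of these few counts was not tested.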
